A study of Mus musculus with 6 samples.

Results

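Livers taken on day 7 postpartum (2 arrays) were compared with livers taken on day 21 of pregnancy (2 arrays), which makes 4 of the 6 arrays of the series. The comparison asks what changes in the maternal liver between the end of pregnancy and the first week of lactation. The mice were CYP2D6-humanized: they carry the human gene for CYP2D6, a liver enzyme that breaks down many drugs, on a C57BL/6 background. Every animal carries this transgene, those of the pre-pregnancy group included, so no array shows a liver without it. The promoter of the transgene, the hour of collection, feeding and litter size are not named in the labels used here. The replicates are called biological in the labels, with no further detail, so p-values measure the spread between these livers. The other 2 arrays, from pre-pregnancy livers, entered the estimate of the spread, and their values are given below as levels only. Each gene was represented by 1 probe set: among probe sets with exactly 1 gene symbol, the one with the highest mean over all 6 arrays. This gave 18194 genes.

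Near term the maternal liver supplies fuel to the fetus, and its own fat use, bile acid handling and plasma protein output are shaped by estrogens, progesterone and placental hormones. After birth the dam eats far more, prolactin is high, and the liver makes and exports lipid, bile acids and amino acid products in support of milk production. The maternal liver also changes in size across pregnancy and lactation, with division of its hepatocytes.

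The tissue carried the marks of liver in all 4 arrays. The 11 hepatocyte markers measured had a median difference of -0.04 on the log2 scale, and none of them was called. Albumin (Alb), the main plasma protein made by hepatocytes, read 14.98 and 14.91 in pregnancy and 14.90 and 14.93 postpartum. Replicates correlated at 0.994 in pregnancy and 0.996 postpartum over all genes. The pregnancy arrays stood further apart than the others: 162 genes differed by over 2-fold between them, against 57 between the postpartum arrays and 24 between the pre-pregnancy arrays.

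At an adjusted p under 0.05 (limma, Benjamini-Hochberg over all genes, two-sided), 599 genes or 3.29% differed between postpartum and pregnancy. Of these, 439 (2.41% of all genes) were higher postpartum and 160 (0.879%) were lower. These are the backgrounds for every count of members below, and a gene past this threshold is written as called, risen or fallen. The median difference was -0.01 over all genes, 0.78 over the genes called higher and -0.76 over those called lower (log2, postpartum minus pregnancy). Changes of at least 2-fold made up 131 of the rises and 49 of the falls, and changes of at least 4-fold 15 and 4. Values did not overlap between the groups in all 599 called genes, but also in 50.1% of all genes, so with 2 arrays a side a lack of overlap alone says little. An exact permutation test of 2 arrays against 2 cannot go below p = 0.333, and the calls therefore rest on the spread that limma pools over genes and over the 3 groups.

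The number of calls depended on each array. It was 528 without pregnancy replicate 1, 305 without pregnancy replicate 2, 115 without postpartum replicate 1, 149 without postpartum replicate 2 and 203 without either pre-pregnancy array. All 599 genes kept their direction in each of these 6 fits, and 71 of them (50 higher, 21 lower) were called in all 6. No called gene overlapped between the groups, so leaving out an array could not turn its direction, and the kept directions add no support. The fits without pre-pregnancy replicate 1 and without replicate 2 are the same fit, since a single array left in a group adds nothing to the spread. Quantile normalization repeated on these values gave 292 higher and 175 lower calls, a share of 62.5% higher against 73.3% in the fit reported. Of 331 called genes with more than 1 probe set, 216 had all their probe sets on the same side of 0. RMA gives each array a common distribution, so a change shared by most genes would not show.

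**Figure D1:**
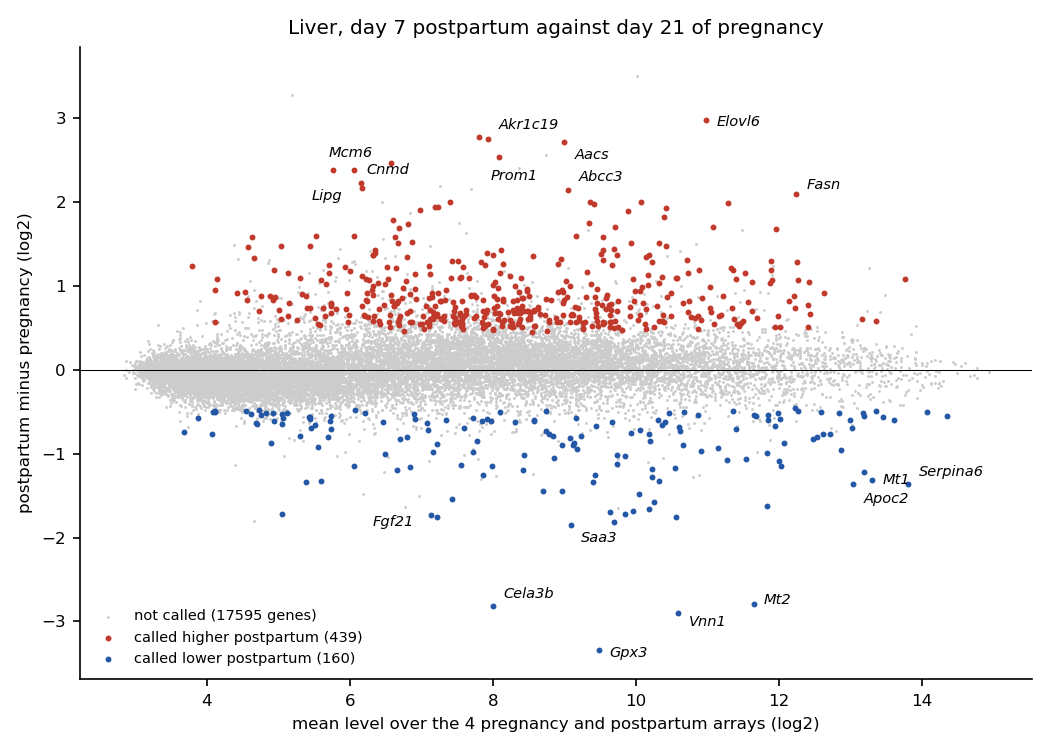
Each point is 1 of the 18194 genes, with its mean level over the 4 pregnancy and postpartum arrays (log2, horizontal axis) against the difference between postpartum and pregnancy (log2, vertical axis), and the 439 and 160 called genes are coloured by direction. Rises such as Elovl6 and falls such as Gpx3 lie at differences of 2.98 and -3.34.

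Of the 22 measured genes of fatty acid synthesis, 13 were called higher and none lower, with a median difference of 1.13 against -0.01 over all genes. Acss2, which activates acetate, read 10.15 and 10.43 in pregnancy and 12.53 and 12.03 postpartum, 3.97-fold higher (adjusted p = 0.00264). Acaca, the carboxylase that commits acetyl units to fat, read 9.49 and 9.67 in pregnancy and 11.05 and 10.68 postpartum, a difference of 1.28 ± 0.16 (SE, adjusted p = 0.0103). Fasn, the synthase itself, went from 10.69 and 11.68 to 13.46 and 13.11 (4.29-fold, adjusted p = 0.0128). In all of these both postpartum livers were above both pregnancy livers, and the lower of the pregnancy values came from replicate 1. Acly, which frees acetyl units from citrate, and Me1, the malic enzyme that supplies NADPH, were chosen after their values were seen, and rose 3.19-fold and 3.25-fold (adjusted p = 0.0186 and 0.0133). Before pregnancy the first 3 genes read 11.29 and 11.32 for Acss2, 10.11 and 9.79 for Acaca and 12.09 and 12.11 for Fasn.

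Aacs, which activates acetoacetate for lipid synthesis in the cytosol, read 7.07 and 8.20 in pregnancy, 10.24 and 10.46 postpartum and 10.53 on both pre-pregnancy arrays. Tkt, a transketolase of the pentose phosphate pathway that helps supply NADPH, read 11.95 and 11.83 in pregnancy and 12.97 and 12.91 postpartum (2.07-fold, adjusted p = 0.00531). Mlxipl, which encodes the carbohydrate-responsive factor ChREBP, read 10 and 10.11 in pregnancy and 11.45 and 11.28 postpartum, 2.48-fold higher (adjusted p = 0.00357). These 3 genes showed no overlap between the groups. Srebf1, which encodes the insulin-responsive factor SREBP-1, read 10.68 and 11.37 in pregnancy and 11.89 and 12.07 postpartum and missed the threshold (difference 0.95 ± 0.21, adjusted p = 0.0514).

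Of 16 genes of fatty acid elongation and desaturation, 4 were called higher and none lower, and the median difference was 0.02. Elovl6, which lengthens palmitate to stearate, read 9.02 and 9.96 in pregnancy and 12.89 and 12.04 postpartum (7.86-fold, adjusted p = 0.0133). Scd1, the stearoyl desaturase, read 13.54 and 12.89 in pregnancy and 14.36 and 14.24 postpartum, a difference of 1.08 ± 0.21 (adjusted p = 0.0372). The other 2 were Scd2, 2.69-fold higher, and Elovl1, 1.76-fold higher. The 12 members that were not called include the desaturases and elongases of polyunsaturated fat: Fads1, Fads2, Elovl2 and Elovl5, chosen after their values were seen, differed by -0.17, -0.10, -0.13 and 0.21. In triglyceride assembly, where 1 of 28 genes was called higher and 1 lower, the first acylation step split by isoform. Gpam, the mitochondrial acyltransferase, rose from 12.02 and 12.31 to 13.30 and 12.87, while Gpat3, the microsomal one, fell from 9.73 and 9.25 to 8.73 and 8.62 (adjusted p = 0.0298 and 0.0408).

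Left-out arrays changed these counts. Without postpartum replicate 1, 4 members of fatty acid synthesis were called higher, without postpartum replicate 2 there were 8, and without either pre-pregnancy array 6. Without pregnancy replicate 1 there were 10, and without pregnancy replicate 2 there were 13. Among the genes just named, Acss2, Aacs, Tkt and Mlxipl were called with each of the 6 arrays left out. The remaining called ones missed the threshold in at least 1 of those fits, with a highest adjusted p between 0.0594 for Acaca and 0.189 for Gpat3. The 20 genes above 0 in fatty acid synthesis included 18 whose groups did not overlap, beside 25.1% of all genes that were higher postpartum without overlap.

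Of 20 measured genes of cholesterol synthesis and uptake, 4 were called higher and none lower, and the median difference was 0.94. All 20 had both postpartum arrays above both pregnancy arrays, beside 25.1% of all genes, and 16 did not pass the test. Pmvk, a kinase of the mevalonate pathway, read 8.64 and 8.85 in pregnancy and 10.53 and 10.13 postpartum (3.0-fold, adjusted p = 0.0032). Dhcr7, the last reductase of the pathway, read 9.31 and 9.68 against 11.08 and 10.64 (2.58-fold, adjusted p = 0.012). Lss, which closes the sterol ring, read 7.89 and 9.06 against 10.36 and 10.08 (3.35-fold, adjusted p = 0.0318). For Pmvk and Dhcr7 both replicates of a group lay close together, whereas for Lss the pregnancy replicates lay over 2-fold apart. Sc5d, a desaturase late in the pathway, was the other call, 1.71-fold higher (adjusted p = 0.0227).

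That spread between the pregnancy livers recurred through the list. The median member was 0.67 higher in pregnancy replicate 2 than in replicate 1, and 0.27 lower in postpartum replicate 2 than in replicate 1. With pregnancy replicate 2 left out, 15 of the 20 were called higher, against 5 without pregnancy replicate 1, 1 without postpartum replicate 1, 3 without postpartum replicate 2 and 2 without either pre-pregnancy array. Mvd, the decarboxylase of the pathway, shows such a spread and was chosen after its values were seen: 6.31 and 8.61 in pregnancy against 10.02 and 10.01 postpartum (adjusted p = 0.0656). Pmvk was called with every array left out, and Dhcr7, Sc5d and Lss missed the threshold in at least 1 fit (adjusted p up to 0.0612, 0.111 and 0.156).

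All 16 cholesterol genes with a promoter in the RefSeq table used here held the motif CCAAT on either strand. The window ran from 250 bases before the gene start to 50 after it. CCAAT lay in 42% of the 14453 measured genes with a promoter, 53.4% of those called higher and 42% of those called lower. Other lists held it too: 72.7% of fatty acid synthesis and of mitosis, 59.6% of DNA replication and 35.7% of metallothioneins and zinc transport. The longer motif TCACNCCAC, a form of the sterol regulatory element, was found in 1 of the 16 (Hmgcs1) and in 1.46% of all. The promoter of Lss is shown as an example, from build GRCm38.p6 at chr10:76531355-76531604 on the plus strand, with the 250 bases before the gene start 5′ to 3′ and the match in capitals (ATTGG, the reverse complement of CCAAT).
Lss: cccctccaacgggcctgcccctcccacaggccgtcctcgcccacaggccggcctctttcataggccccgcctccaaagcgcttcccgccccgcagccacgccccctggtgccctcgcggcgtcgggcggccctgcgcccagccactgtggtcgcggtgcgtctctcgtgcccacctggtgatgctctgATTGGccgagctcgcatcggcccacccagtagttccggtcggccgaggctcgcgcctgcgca
The match begins 62 bases before the gene start. A match is a description of letters, and no binding was measured.

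Of 36 measured genes of fatty acid oxidation and ketone synthesis, 4 were called lower and none higher, 30 lay below 0, and the median difference was -0.20. The called members are 1 enzyme of ketone body metabolism and 3 genes tied to the fasting and PPARα response. Vnn1, a pantetheinase whose gene responds to the fatty acid sensor PPARα, read 12.54 and 11.54 in pregnancy and 8.97 and 9.30 postpartum (7.49-fold lower, adjusted p = 0.00381). Fgf21, a hormone that the liver secretes in fasting, read 8.20 and 7.81 in pregnancy and 6.29 and 6.25 postpartum, 3.33-fold lower (adjusted p = 0.00249). Acat1, the thiolase of ketone body metabolism, read 13.27 and 12.92 against 12.29 and 12.36, and Creb3l3, a membrane-bound factor that acts in fasting, read 11.82 and 11.68 against 10.88 and 11.21 (adjusted p = 0.0275 and 0.0346). No postpartum value of these 4 genes reached a pregnancy value. Vnn1 and Fgf21 were called with each array left out; Acat1 and Creb3l3 were not, with adjusted p up to 0.136 and 0.156.

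Ppara, the gene for PPARα, read 11.69 and 11.44 in pregnancy and 11 and 11.02 postpartum and missed the threshold (difference -0.56 ± 0.12, adjusted p = 0.0509). The median member of the list was 0.32 lower in pregnancy replicate 2 than in replicate 1. Without pregnancy replicate 2, 8 members were called lower, and 2 without each of the other arrays. The pregnancy livers were far apart in Cyp4a14, a fatty acid hydroxylase chosen after its values were seen, at 10.44 and 6.03, with both postpartum values between them at 8.81 and 8.69. Vnn3, a related pantetheinase outside the list, fell from 11.03 and 11.04 to 9.48 and 9.44 (2.98-fold, adjusted p = 0.000976), and there the pregnancy replicates were level.

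In lipoprotein handling 3 of 30 genes were called higher and 3 lower, with a median of -0.03. Lipg, the endothelial lipase, read 4.99 and 5.17 in pregnancy and 7.22 and 7.28 postpartum (4.50-fold, adjusted p = 0.000587), and 7.20 and 7.37 before pregnancy. Vldlr, a receptor that takes up triglyceride-rich particles, rose 2.39-fold (adjusted p = 0.00259), and Pltp, which transfers phospholipid between particles, rose 1.91-fold. Both pregnancy arrays were below both postpartum arrays in each. Apoc2, the cofactor that activates lipoprotein lipase, fell from 13.66 and 13.77 to 12.41 and 12.30 (2.57-fold, adjusted p = 0.00234), with 11.89 and 11.94 before pregnancy. Angptl4, an inhibitor of lipoprotein lipase, fell from 11.64 and 11.23 to 9.91 and 9.46 (3.36-fold, adjusted p = 0.00471). So an activator and an inhibitor of the same lipase were both lower. The lowest difference among the probe sets of Lipg was -0.08, and the other probe set of Angptl4 differed by -0.14. Fabp2, a fatty acid binding protein, fell 1.96-fold (adjusted p = 0.0387). Lipg, Vldlr, Apoc2 and Angptl4 were called with every array left out, while Pltp and Fabp2 were not (adjusted p up to 0.0528 and 0.131).

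**Figure D2:**
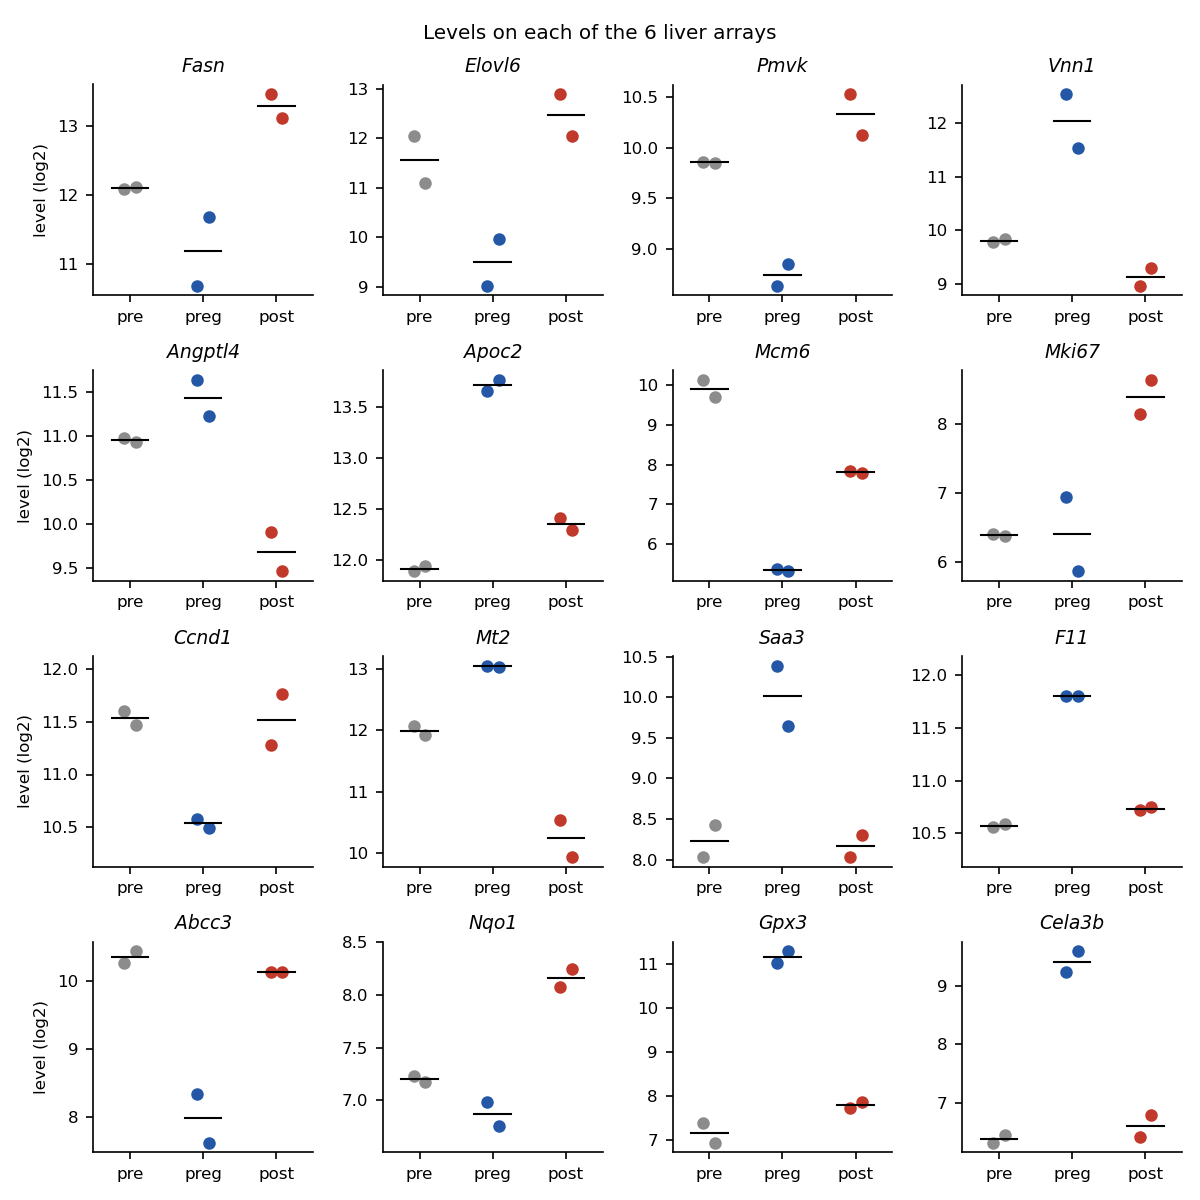
Levels (log2, vertical axis) of 16 genes on each of the 6 arrays, grouped as pre-pregnancy (pre), day 21 of pregnancy (preg) and day 7 postpartum (post), with a bar at each group's mean of 2; the vertical scale differs between panels. In every panel the 2 postpartum points lie on one side of the 2 pregnancy points.

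Of 55 measured genes of DNA replication, 15 were called higher and none lower, 50 lay above 0, and the median difference was 0.49. The MCM proteins form the helicase that opens DNA at replication origins. Mcm6 read 5.38 and 5.31 in pregnancy and 7.83 and 7.78 postpartum (5.5-fold, adjusted p = 0.000706). Mcm5 read 6.32 and 5.73 against 7.95 and 7.92, and Mcm4 5.94 and 6.27 against 7.64 and 7.62 (3.76-fold and 2.88-fold, adjusted p = 0.00468 and 0.00381). The postpartum livers differed from each other by at most 0.05 in these 3 genes, and no pregnancy value came near them. Before pregnancy the levels were 10.14 and 9.70 for Mcm6, 9.89 and 9.55 for Mcm5 and 9.01 and 8.70 for Mcm4.

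Cdt1, which loads the helicase, rose from 7.14 and 7.50 to 8.68 and 8.70 (adjusted p = 0.00603). Pold2, a subunit of the replicative polymerase, rose from 6.86 and 7.14 to 8.10 and 8.08 (adjusted p = 0.00895). Other probe sets were less clear for some of these genes: the range over a gene's probe sets ran from 0.15 to 2.46 for Mcm6, from -0.14 to 1.91 for Mcm5 and from -0.06 to 1.52 for Cdt1. Without postpartum replicate 1 the list held 4 calls, without postpartum replicate 2 it held 5 and without pregnancy replicate 2 it held 7, against 11 without either pre-pregnancy array and 16 without pregnancy replicate 1. Mcm6, Mcm5, Mcm4 and Cdt1 were called in all 6 of these fits, and Pold2 was not (adjusted p up to 0.0609).

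The motifs TTTCGCGC, TTTCCCGC, TTTGGCGC and TTTGCCGC are forms of the site bound by E2F factors, which switch on replication genes. At least 1 of them, on either strand, lay in the promoter of 18 of the 47 replication genes with a promoter in the table (38.3%) and in 3.81% of the 14453 measured genes. It lay in 7.91% of the genes called higher and 0.84% of those called lower. The promoters of Mcm6 and Mcm5, the helicase genes named above with the largest rises, are shown as the 250 bases before the gene start, 5′ to 3′, with matches in capitals. Mcm6 lies on the minus strand at chr1:128359706-128359955 and Mcm5 on the plus strand at chr8:75109259-75109508 (GRCm38.p6).
Mcm6: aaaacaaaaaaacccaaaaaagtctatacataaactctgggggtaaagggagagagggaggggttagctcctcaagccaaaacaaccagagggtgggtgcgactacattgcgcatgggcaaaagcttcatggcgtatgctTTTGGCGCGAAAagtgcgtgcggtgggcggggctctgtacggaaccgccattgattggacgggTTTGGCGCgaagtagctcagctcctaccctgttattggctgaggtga
Mcm5: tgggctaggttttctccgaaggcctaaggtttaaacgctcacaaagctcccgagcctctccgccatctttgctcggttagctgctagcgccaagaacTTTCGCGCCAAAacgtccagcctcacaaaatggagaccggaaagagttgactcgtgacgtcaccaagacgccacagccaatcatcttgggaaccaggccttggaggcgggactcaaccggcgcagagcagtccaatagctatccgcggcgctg
Mcm6 held 3 matches, beginning 110, 106 and 47 bases before the start, of which the first 2 overlap. Mcm5 held 2 overlapping matches, at 153 and 149 bases.

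Of 56 measured genes of mitosis, 3 were called higher and none lower, and the livers of a group differed widely. The median difference was 0.94 and 54 lay above 0. Mki67, a protein present in dividing cells, read 6.94 and 5.86 in pregnancy and 8.15 and 8.65 postpartum (4.0-fold, adjusted p = 0.02). Ect2, which positions the cleavage furrow, read 5.78 and 4.31 against 7.05 and 7.50 (adjusted p = 0.031), and Spc24, a kinetochore protein, 6.26 and 5.43 against 7.28 and 7.57 (adjusted p = 0.021). Among the 4 livers compared, the lowest in each of the 3 genes was pregnancy replicate 2 and the highest was postpartum replicate 2. The median member was 0.95 lower in pregnancy replicate 2 than in replicate 1 and 0.59 higher in postpartum replicate 2 than in replicate 1. Accordingly 21 members were called without pregnancy replicate 1, 3 without pregnancy replicate 2, 3 without postpartum replicate 1, and none without postpartum replicate 2 or without either pre-pregnancy array. In both groups 26 of the 56 genes had a mean below the median level of all genes, 6.38.

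Among 35 genes of G1 control and cell cycle inhibitors, 5 were called higher and none lower. Ccnd1, the cyclin that starts the cell cycle in hepatocytes, rose from 10.58 and 10.49 to 11.28 and 11.76 (1.98-fold, adjusted p = 0.0223), beside 11.60 and 11.47 before pregnancy. E2f2, an E2F factor, rose from 5.27 and 5.05 to 6.15 and 6.22 (adjusted p = 0.00603). Chek1, a checkpoint kinase, read 3.63 and 4.07 against 5.30 and 5.33 (adjusted p = 0.0249); its 5 probe sets ranged from -0.10 to 1.46. Ccnd2 and Cdkn2d rose 1.45-fold and 1.69-fold. E2f2 was called with every array left out, and the others missed the threshold in some fits (adjusted p up to 0.196, for Ccnd2). Myc, a growth factor-driven activator of division, and Foxm1, a driver of mitotic genes, were not called (adjusted p = 0.757 and 0.514).

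**Figure D3:**
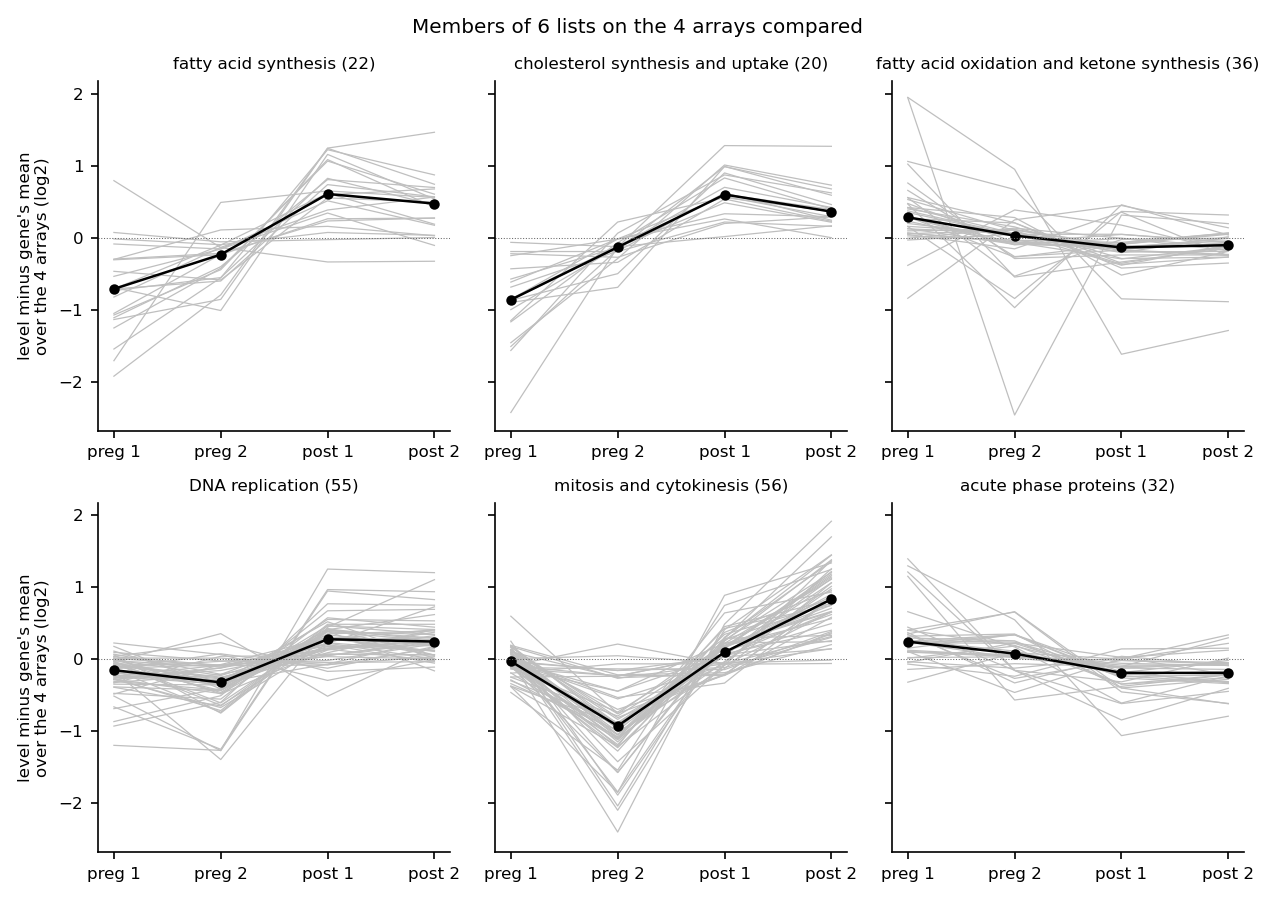
Each grey line is 1 gene of the list named above the panel (number of genes in brackets), drawn as its level on each of the 4 arrays minus its mean over them (log2), and black points mark the median gene. The cholesterol genes lie lowest in pregnancy replicate 1 and the mitotic genes lowest in pregnancy replicate 2, so the 2 pregnancy livers differed in opposite directions for these lists.

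Metallothioneins are small proteins that bind zinc and copper and respond to metals, glucocorticoids and inflammation. Mt2 read 13.05 and 13.03 in pregnancy and 10.55 and 9.94 postpartum, 6.94-fold lower (adjusted p = 0.000976), beside 12.07 and 11.92 before pregnancy. Mt1 read 13.87 and 14.05 in pregnancy and 12.76 and 12.54 postpartum, 2.48-fold lower (adjusted p = 0.0031), beside 12.85 and 12.83. Both genes were high on both pregnancy arrays with no overlap. Of the 16 genes of metallothioneins and zinc transport, 2 were called lower and 2 higher. The rises were zinc importers, Slc39a10 (5.45 and 5.19 against 6.77 and 6.31, adjusted p = 0.0143) and Slc39a4 (9.26 and 9.03 against 9.94 and 10.07, adjusted p = 0.0173). Mt1 and Mt2 were called with every array left out, Slc39a10 and Slc39a4 in 4 and 3 of the 6 fits (adjusted p up to 0.0644 and 0.11).

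The pair of metallothionein promoters is shown because both genes fell together. The motifs TGCGCNC and TGCACNC, the core of the metal response element, were found on either strand in 10 of the 14 genes of this list with a promoter and in 36.3% of all 14453 genes, so the motif alone is common. The sequences are the 250 bases before the gene start on the plus strand, at chr8:94178839-94179088 for Mt1 and chr8:94172368-94172617 for Mt2 (GRCm38.p6), with matches in capitals.
Mt1: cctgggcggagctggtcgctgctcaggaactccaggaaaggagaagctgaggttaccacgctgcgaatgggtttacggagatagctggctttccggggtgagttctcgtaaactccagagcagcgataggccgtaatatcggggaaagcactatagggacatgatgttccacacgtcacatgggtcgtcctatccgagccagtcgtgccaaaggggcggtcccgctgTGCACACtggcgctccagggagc
Mt2: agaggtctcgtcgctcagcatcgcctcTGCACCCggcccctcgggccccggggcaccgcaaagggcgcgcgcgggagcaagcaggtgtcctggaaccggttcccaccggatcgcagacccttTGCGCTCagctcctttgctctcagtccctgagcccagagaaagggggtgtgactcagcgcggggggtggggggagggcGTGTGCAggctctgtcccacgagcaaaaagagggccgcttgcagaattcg
Mt1 held 1 match before the gene start, and Mt2 held 3. The counts over genes also cover the 50 bases after the start, which are not printed. Over that whole window Mt1 held 3 matches and Mt2 held 4.

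The acute phase genes encode plasma proteins that the liver secretes in inflammation and the receptors that induce them; only their transcripts were measured. Of 32 measured genes, 10 were called lower and none higher, and the median difference was -0.34. Saa3, a serum amyloid A protein, read 10.39 and 9.64 in pregnancy and 8.03 and 8.30 postpartum (3.61-fold lower, adjusted p = 0.012), beside 8.03 and 8.43 before pregnancy. Lbp, which binds bacterial lipopolysaccharide, read 11.95 and 12.20 against 11.09 and 10.93 (2.09-fold, adjusted p = 0.0219). Serpina3n, a protease inhibitor, read 12.27 and 12.30 against 11.55 and 11.67 (1.60-fold, adjusted p = 0.0173). In all 3 the pregnancy livers were the higher pair. The receptors that carry the inflammatory signal fell too: Il6ra, for interleukin 6, from 10.09 and 10.40 to 9.34 and 9.12, and Il1r1, for interleukin 1, from 8.83 and 8.92 to 8.32 and 8.24 (adjusted p = 0.0133 and 0.0298). Among secreted products, haptoglobin (Hp) was 1.52-fold, ceruloplasmin (Cp) 1.46-fold and Itih4 1.41-fold lower. Without postpartum replicate 1 no member of the list was called, against 1 without postpartum replicate 2, 3 without either pre-pregnancy array, 4 without pregnancy replicate 1 and 6 without pregnancy replicate 2. Saa3 missed the threshold in 1 of the 6 fits. Lbp and Il6ra were called in 3 and 4 of them, and Il1r1, Hp, Cp and Itih4 in none. The other probe set of Il1r1 differed by -0.025.

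Among 37 measured genes of clotting and complement, 3 were called lower and 1 higher, with a median of -0.16. F11, coagulation factor XI, read 11.81 on both pregnancy arrays and 10.72 and 10.75 postpartum (2.11-fold lower, adjusted p = 0.0028), beside 10.56 and 10.59 before pregnancy. F5, the cofactor of the prothrombin-cleaving complex, read 13.27 and 13.41 against 12.43 and 12.34 (adjusted p = 0.00756). C8a and C9 both belong to the pore that complement forms in target membranes, and they moved apart: C8a fell from 11.76 and 11.47 to 10.50 and 10.87, while C9 rose from 9.78 and 9.14 to 10.91 and 11.87 (adjusted p = 0.0249 and 0.0204). The pre-pregnancy level of C9 was 13.24 on both arrays. F11 was called with every array left out, and F5, C8a and C9 were not (adjusted p up to 0.0521, 0.118 and 0.0831).

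Conjugation enzymes attach water-soluble groups to foreign compounds so that they can be cleared. Of 40 conjugation enzymes, 7 were called higher and none lower (median 0.24), and of 30 antioxidant genes and targets of the stress sensor Nrf2, 6 were called higher and 1 lower (median 0.25). Ugdh, which makes the sugar acid used in glucuronidation, read 9.59 and 9.36 in pregnancy and 11.47 and 11.12 postpartum (3.53-fold, adjusted p = 0.00244). Gstm4, a glutathione transferase, read 9.81 and 9.57 against 11.15 and 11.17 (2.77-fold, adjusted p = 0.00244). Nqo1, a quinone reductase and standard Nrf2 target, read 6.98 and 6.76 against 8.08 and 8.25 (2.45-fold, adjusted p = 0.0032). Postpartum values were above pregnancy values throughout, and each of these 3 genes was called with every array left out. Glutathione transferases share sequence, so their probe sets may read related family members. Gsta2, Gstm6 and Gstm3 rose 2.53-fold, 1.79-fold and 1.77-fold, and Ephx1, Mafg and Srxn1 rose 2.29-fold, 1.67-fold and 1.51-fold, but these 6 missed the threshold in some fits with an array left out (adjusted p up to 0.169, for Srxn1).

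Gpx3, a secreted glutathione peroxidase, was the member of the antioxidant list that fell. It read 11.02 and 11.28 in pregnancy and 7.74 and 7.87 postpartum, 10.2-fold lower (adjusted p = 0.000587), beside 7.40 and 6.94 before pregnancy. Both pregnancy livers were far above all 4 other livers, and the call held with every array left out.

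Transporters that move bile acids and organic anions out of the cell across the blood-facing membrane were the members that rose among 24 transport genes, with 3 called higher and none lower (median 0.12). Abcc3 read 8.34 and 7.62 in pregnancy, 10.12 and 10.13 postpartum and 10.26 and 10.43 before pregnancy (4.42-fold, adjusted p = 0.00381). Abcc4, which also counts among the Nrf2 targets, read 5.90 and 5.94 against 7.52 and 7.34 (2.85-fold, adjusted p = 0.00271). Slc51b, a subunit of the organic solute transporter, read 5.75 and 5.47 against 6.87 and 6.59 (2.17-fold, adjusted p = 0.0108). No pregnancy value reached a postpartum value, and Slc51b alone of the 3 lost its call, in 1 of the fits with an array left out (adjusted p = 0.0644). In bile acid synthesis 1 of 22 genes was called: Baat, which joins bile acids to taurine, rose 1.57-fold (adjusted p = 0.0284, and up to 0.154 with an array left out). Cyp7a1, whose hydroxylase sets the pace of bile acid production, read 9.45 and 12.39 in pregnancy and 12.02 and 11.65 postpartum, so its pregnancy livers lay on both sides of the postpartum ones (adjusted p = 0.539).

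Among 32 genes of drug-metabolising P450 enzymes and their receptors 3 were called higher and 3 lower, and the median was 0.00. Cyp2c55 read 5.17 and 5.36 in pregnancy and 6.95 and 6.77 postpartum (3.02-fold, adjusted p = 0.00244). Cyp2b10, a target of the receptor CAR, read 9.78 and 10.27 against 11.33 and 10.91 (2.14-fold, adjusted p = 0.0298), while Nr1i3, the gene for CAR, fell from 10.89 and 10.55 to 10.07 and 10.13 (1.54-fold, adjusted p = 0.0488). Cyp1a1 rose 2.58-fold (adjusted p = 0.0355). Cyp3a16 fell 1.5-fold (adjusted p = 0.049) and Cyp3a11 was not called (adjusted p = 0.421). The mouse relatives of the transgene gave small differences: Cyp2d26 read 13.54 and 13.65 against 13.09 and 13.12 (1.40-fold lower, adjusted p = 0.045), and Cyp2d22 stayed between 11.45 and 11.47 on the 4 arrays. Cyp2c55 was called with every array left out, and the other 5 lost the call in at least 5 of the 6 fits (adjusted p up to 0.21, for Cyp3a16). P450 genes of one subfamily share sequence, so these probe sets may read close relatives.

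Regulators of hepatocyte and drug metabolism genes were read out whatever their values. Hnf4a, a master regulator of hepatocytes and of CYP2D6, read 12.73 and 12.64 in pregnancy and 12.61 and 12.69 postpartum (adjusted p = 0.888). Nr0b2, the gene for the repressor SHP, read 10.18 and 8.17 in pregnancy and 9.94 and 9.85 postpartum, so the difference of 0.72 ± 0.59 was within the gap between the pregnancy livers (adjusted p = 0.531). The bile acid receptor gene Nr1h4 read 10.02 on both arrays in pregnancy and 10.01 on both postpartum arrays. A p above the threshold does not show equal levels. Nr1i2, Esr1, Igf1 and Ghr were not called (adjusted p = 0.46, 0.662, 0.76 and 0.157). They encode the receptor PXR, the estrogen receptor, insulin-like growth factor 1 and the growth hormone receptor. The 3 probe sets of Ghr ranged from -1.49 to -0.66, and 1 of them was called lower when every probe set was tested by itself.

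In the list of 27 hepatocyte transcription factors 3 were called lower and none higher. Foxa3, which opens hepatocyte chromatin, read 11.12 and 11.09 in pregnancy and 10.16 and 10.25 postpartum (1.87-fold, adjusted p = 0.00613), beside 10.09 and 10.04 before pregnancy. Klf9, a factor induced by glucocorticoid and thyroid hormone, read 13.01 and 12.78 against 12.17 and 11.96 (1.78-fold, adjusted p = 0.0189). Klf10 read 9.34 and 8.70 against 7.98 and 7.67 (2.29-fold, adjusted p = 0.0275). For all 3 the pregnancy pair was the higher. Foxa3 lost its call in 1 fit with an array left out (adjusted p = 0.0503), and Klf9 and Klf10 in most (up to 0.119 and 0.145). Serpina6, the gene for the plasma carrier of corticosteroids, read 14.44 and 14.53 in pregnancy and 13.47 and 12.77 postpartum, 2.58-fold lower (adjusted p = 0.0173), beside 12.49 and 12.37 before pregnancy; its call was lost in 3 of the 6 fits (up to 0.0708).

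Steroid-metabolising enzymes had 2 of 20 genes called higher and 1 lower. Akr1c19, an aldo-keto reductase, read 6.34 and 6.78 in pregnancy and 9.34 and 9.28 postpartum (6.73-fold, adjusted p = 0.000587), beside 8.86 and 8.71 before pregnancy. Akr1c13, of the same family, rose 1.66-fold (adjusted p = 0.0139). Hsd17b6, which acts on sex steroids and retinoids, fell from 12.56 and 12.64 to 11.62 and 11.29 (2.21-fold, adjusted p = 0.00933), and its other probe set differed by 0.17. Akr1c19 was called with each array left out, Hsd17b6 reached 0.0501 in 1 fit and Akr1c13 lost the call in 2 (up to 0.0856). In retinoid metabolism 1 of 28 genes was called: Rdh11, a retinal reductase, rose from 8.75 and 9.39 to 11.31 and 10.84 (4.01-fold, adjusted p = 0.00743). Rdh9, a retinol dehydrogenase outside the list, fell from 12.36 and 12.92 to 11.13 and 10.89 (3.10-fold, adjusted p = 0.00752). Neither pair of groups overlapped, and both calls held with every array left out.

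In amino acid breakdown and the urea cycle 5 of 40 genes were called higher and 1 lower (median 0.17). Got1, the cytosolic aspartate aminotransferase, read 10.87 and 10.57 against 11.98 and 11.88 (2.31-fold, adjusted p = 0.0105). Ddc, which decarboxylates aromatic amino acids, read 8.95 and 8.77 against 10.60 and 10.52 (3.25-fold, adjusted p = 0.0032), while its other probe set differed by 0.06. Asl, the argininosuccinate lyase of the urea cycle, read 11.74 and 11.98 against 12.58 and 12.61 (1.66-fold, adjusted p = 0.0255). All were higher in both postpartum livers. The proline dehydrogenases split: Prodh rose 2.19-fold and Prodh2, which acts on hydroxyproline, fell 1.45-fold (adjusted p = 0.0117 and 0.0395). Ass1, the step before Asl, rose 2.08-fold from 6.18 and 6.33 to 7.33 and 7.29, on 1 probe set (adjusted p = 0.031). Those pregnancy values lay below the median level of all genes, 6.38, and far below those of Asl. Ddc was called with every array left out and Prodh2 in none of those fits (up to 0.19).

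For sugar metabolism 2 of 34 genes were called higher and 1 lower. Khk, which phosphorylates fructose, read 11.92 and 11.60 against 12.64 and 12.65 (1.85-fold, adjusted p = 0.0252). Ppp1r3b, which targets a phosphatase to glycogen and favours its synthesis, rose 1.83-fold, while Gys2, the liver glycogen synthase, fell 1.69-fold from 10.41 and 10.72 to 9.92 and 9.69 (adjusted p = 0.0444 and 0.035). These calls were lost in at least 5 of the 6 fits with an array left out (up to 0.207). In the list of iron and haem genes 4 of 25 were called higher: Tfrc, the transferrin receptor, read 8.12 and 8.60 against 10.35 and 10.37 (4.0-fold, adjusted p = 0.0284), and Bdh2, Ppox and Hfe rose 1.89-fold, 1.60-fold and 1.41-fold. The 6 probe sets of Tfrc ranged from -0.20 to 2.00, with 1 of them called, and its call was lost in 4 of the 6 fits (up to 0.132).

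Several lists held few calls. Subunits of oxidative phosphorylation (86 genes) and mitochondrial ribosomal proteins (76 genes) each had 4 members called higher and none lower, with a median of 0.18 for both, and 74 and 65 members above 0. With 1 array left out these counts were 0 to 3 and 0 to 1; both were 0 without postpartum replicate 1. Cytosolic ribosomal proteins (48 genes) had none called by limma and a median of 0.12; 5 had an unadjusted p under 0.05. Interferon-response genes had 3 of 40 called higher (Isg20, Gbp7 and Dhx58, 1.70-fold, 1.69-fold and 1.46-fold), and the imprinted growth genes 1 of 18: Peg3 fell from 10.40 and 11.16 to 9.45 and 9.14 (2.80-fold, adjusted p = 0.0313). Genes of protein folding in the secretory pathway had 1 called each way of 37, Sec23b higher and Herpud1 lower (1.72-fold and 1.83-fold). Serine, glycine and one-carbon metabolism had Aldh1l1 called higher and Phgdh lower of 20 (1.52-fold and 1.53-fold). Of 31 genes of growth hormone, prolactin and IGF signalling, 1 was called, Lepr, the leptin receptor, 1.74-fold higher (adjusted p = 0.0383). The 4 probe sets of Lepr ranged from -0.345 to 0.795, with 1 of them called. Both of its group means, 5.34 and 6.135, lay below the median level of all genes, 6.38. The 5 probe sets of Peg3 ranged from -1.485 to -0.03, with 3 of them called. With an array left out, Herpud1 was called in 3 of the 6 fits. Isg20, Gbp7, Dhx58, Peg3 and Phgdh were called in 1 of them, and Aldh1l1 and Lepr in none.

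No circadian clock gene of 24 was called by limma at this threshold, and the median was 0.04; 2 of the 24 had an unadjusted p under 0.05. Without pregnancy replicate 1, 3 were called higher, without pregnancy replicate 2 there were 2, and without either pre-pregnancy array 1 was called lower. Clock genes follow the time of day, and some differed between the pregnancy livers: Dbp read 10.05 and 11.55 there and 10.29 and 10.72 postpartum, and Arntl, chosen after its values were seen, 7.62 and 5.66 against 7.59 and 7.15. The part that collection time has in the results was not tested.

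**Figure D4:**
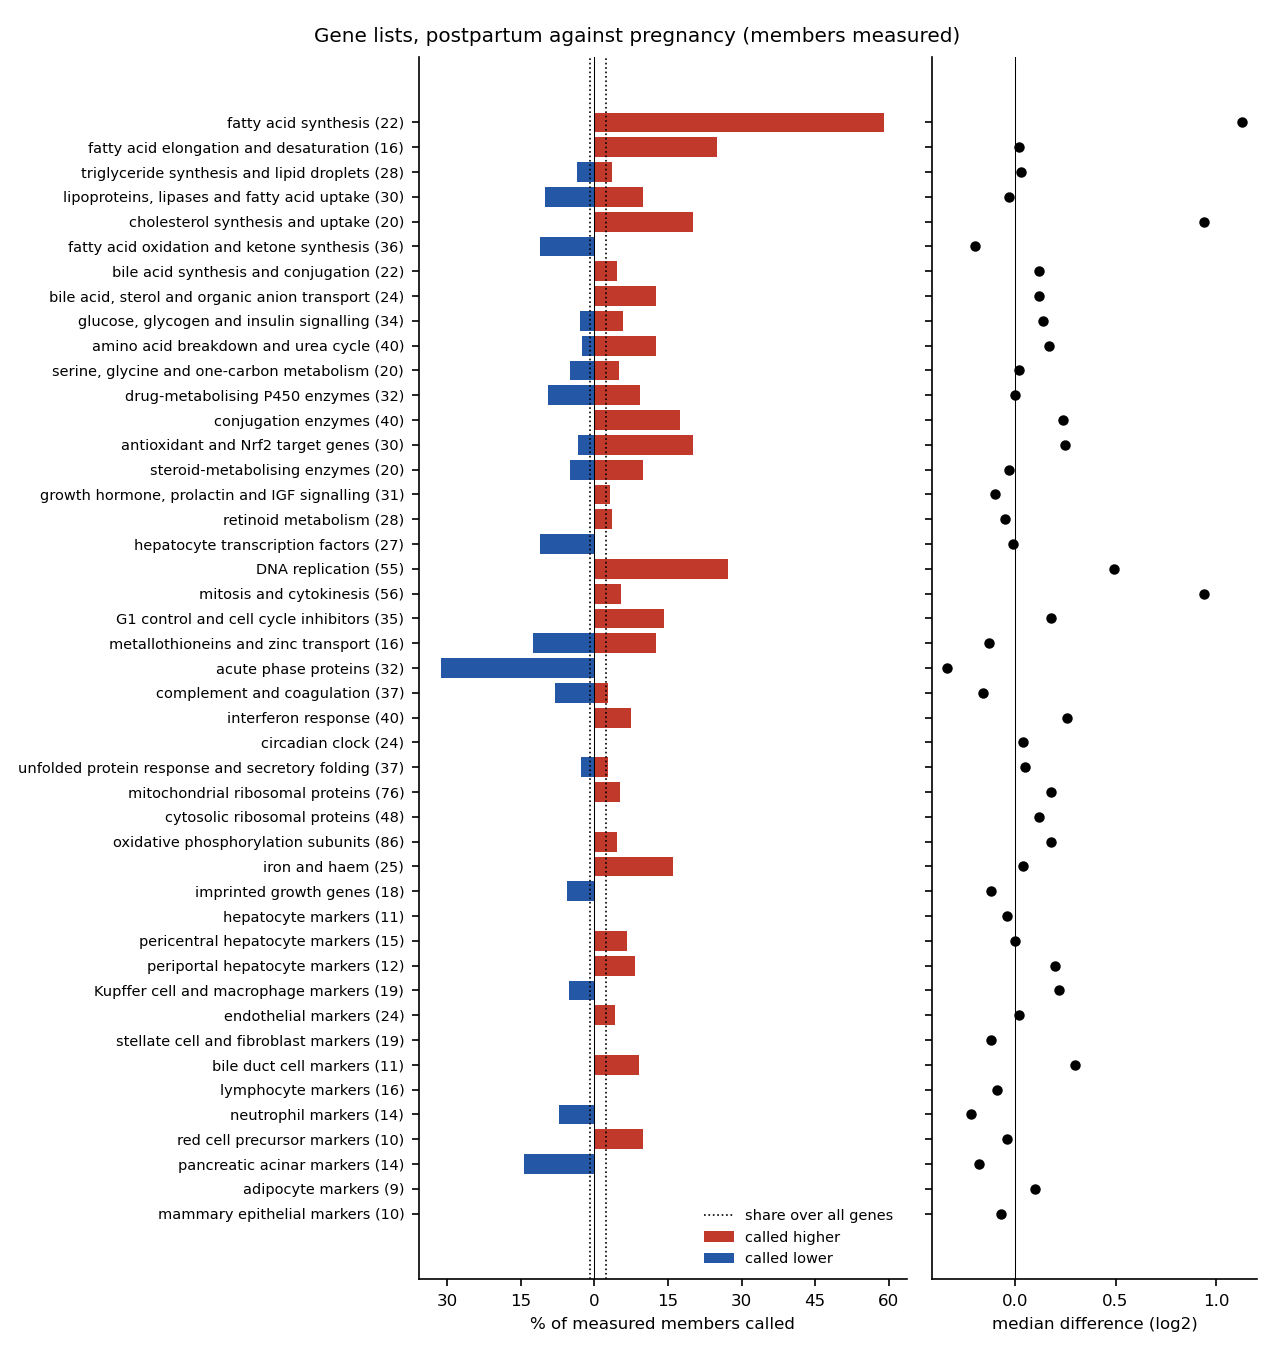
For each of the gene lists (number of measured genes in brackets), the left panel shows the share of members called higher postpartum (right of 0) and lower (left of 0) in percent, with dotted lines at 2.41% and 0.879%, the shares over all genes; the right panel shows the median difference (log2). Fatty acid synthesis reaches 59.1% called higher and acute phase proteins 31.2% called lower.

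Some of the largest changes lay outside these lists. Cnmd, a gene for a matrix protein known from cartilage, read 5.0 and 4.73 in pregnancy, 7.30 and 7.19 postpartum and 9.28 and 8.80 before pregnancy (5.21-fold, adjusted p = 0.00161). Serpinb1a, an inhibitor of neutrophil proteases, read 4.63 and 4.51 in pregnancy and 6.85 and 7.05 postpartum (5.21-fold, adjusted p = 0.000587). Both genes were low in both pregnancy livers. Nid1, a basement membrane protein, fell from 10.30 and 10.89 to 9.01 and 8.56 (3.51-fold, adjusted p = 0.00837), and another of its probe sets showed no fall (0.06). Adamts16, a secreted metalloprotease, fell 3.36-fold and Nlrp12, a regulator of inflammatory signalling, 3.17-fold (adjusted p = 0.0054 and 0.0026). The other probe set of Adamts16 differed by -0.17. Cnmd, Serpinb1a, Nid1, Adamts16 and Nlrp12 were called with each array left out. Rgs16, a brake on G protein signalling, Crip1, a small zinc-binding protein, and Rogdi fell 3.24-fold, 3.29-fold and 3.22-fold and lost the call in some of those fits (adjusted p up to 0.0523, 0.173 and 0.115).

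Markers of other cells of the liver were measured beside these results. In whole liver RNA, fewer cells of a type and less RNA per cell cannot be told apart. Kupffer cell and macrophage markers had 1 of 19 genes called (Ccr2, lower), endothelial markers 1 of 24 (Dnase1l3, higher), neutrophil markers 1 of 14 (S100a9, lower), and stellate cell, lymphocyte, adipocyte and mammary epithelial markers none of 19, 16, 9 and 10. The milk protein genes stayed near background: the mammary list summed to between 238 and 274 on the linear scale on the 4 arrays. Neutrophil markers summed to 1714 and 1078 in pregnancy and 818 and 904 postpartum, and 11 of the 14 were lower postpartum without overlap, beside 25% of all genes. The summed level moved in the same direction as the acute phase genes, and its part in that result was not tested.

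Prom1, a membrane protein of bile duct and progenitor cells, read 6.93 and 6.71 in pregnancy and 9.37 and 9.34 postpartum (5.80-fold, adjusted p = 0.0032), and the call held with every array left out. It was the only called gene of 11 bile duct markers, and 4 were called higher without postpartum replicate 2. The keratin Krt19 (chosen after its values were seen), which defines duct cells, read 5.33 and 4.97 in pregnancy and 7.07 and 5.30 postpartum, high in postpartum replicate 1 alone. The list summed to 1710 and 1461 in pregnancy and 2640 and 2111 postpartum. Prom1 is included in this sum, so the rise of the sum is not separate from that of Prom1.

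Cela3b, a gene for a pancreatic elastase, read 9.23 and 9.59 in pregnancy and 6.41 and 6.78 postpartum (7.04-fold lower, adjusted p = 0.000688), beside 6.31 and 6.44 before pregnancy. All 4 of its probe sets fell, with differences from -2.82 to -5.42. The list of 14 pancreatic acinar markers had 1 other call, Pnliprp1, at 4.31 and 4.61 against 3.82 and 3.57. Of the defining acinar genes, Cpa1 read 4.18 and 4.42 in pregnancy and Prss2 5.56 and 5.17 (chosen after their values were seen), below the median level of all genes, 6.38. The list summed to 1543 and 1768 in pregnancy and 1105 and 1076 postpartum. Cela3b is included in this sum, so the fall of the sum is not separate from that of Cela3b.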

How the data were processed

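Total liver RNA was labelled with a 3′ IVT kit and hybridised to an Affymetrix mouse array, per the labels' protocols. The deposited values were made by the authors with RMA in Affymetrix Power Tools, per the submitters' processing notes, and are on a log2 scale; the base was inferred from their range. Their number, 2 arrays a group, limits the precision. Of 45101 probe sets, 932 with several gene symbols and 9160 with none were left out, as were control probe sets with no symbol. The values were used with no further normalization. Group means of all 6 arrays were fitted with limma 3.58.1 in R 4.3.3 (lmFit, eBayes), postpartum minus pregnancy, with Benjamini-Hochberg adjustment over 18194 genes. The fit was tested on simulated data. Genes and lists were chosen with earlier results of these data known. The genes named are the 15 largest rises and falls among called genes (higher group at or above the median level, no placeholder names), up to 5 called members a list and direction with the lowest adjusted p, the 2 highest members of lists without a call, a list of regulators, and the 6 called genes of highest level. Others are said to be chosen after their values were seen. Same-numbered pregnancy and postpartum arrays did not deviate together (correlation -0.027). Promoters came from RefSeq, build GRCm38.p6, for 14453 genes. The alternatives tried were a replicate block, filters, normalizations, variance models, probe set rules, thresholds, the 2 groups alone and leaving out each array.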

Additional observations from a re-analysis of the deposited data

How the results depend on the processing

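With 2 arrays a group, calls depended on the estimate of the spread. All called genes that a fit by gene tested kept their direction (544 of the 599 were tested without dim genes), except 1 when a gene's probe sets were averaged. Leaving out an array could not turn a direction, since no called gene overlapped between the groups. The replicate block, the filter on dim genes and the variance model leave the differences themselves unchanged. Leaving out each array in turn gave 115 to 528 calls, 77 to 373 of them higher and 33 to 155 lower; where a group kept 1 array, that array was assumed to vary like the other groups. With only the 2 groups compared, 203 genes were called, 153 higher and 50 lower. That is the same fit as the one without either pre-pregnancy array, so it is not a further check. An adjusted p under 0.1 gave 1337 calls, 911 higher and 426 lower. An adjusted p under 0.05 together with a minimum of 2-fold gave 180, of which 131 were higher and 49 lower. Repeated quantile normalization called 292 genes higher and 175 lower, a trended and robust variance 584 and 246, and arrays centred on their medians 390 and 219 (64% higher, against 73.3% as reported). The replicate number as a block gave 574 calls, 490 of them among the 599; the numbers share no known source. Dhx58 changed sign on the probe set nearest the median of its probe sets (-0.10). The causes of these changes were not tested. Of the 599 called genes, 82 lay below the median level of all genes in both groups.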

Other observations

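Of the 599 called genes, 141 belonged to the gene lists and 458 to none of them. The lists cover only 1216 of the 18194 genes, so most genes lie outside them, called or not. Several metabolic genes among the 458 are given here, all chosen after their values were seen. Etnppl, a lyase that breaks down phosphoethanolamine, read 8.65 and 8.21 in pregnancy and 10.48 and 10.32 postpartum (3.92-fold higher, limma adjusted p = 0.00259). Rpia, an isomerase of the pentose phosphate pathway, read 7.15 and 7.28 in pregnancy and 8.72 and 8.5 postpartum (2.63-fold, adjusted p = 0.0026). Eci3, an isomerase of unsaturated fatty acid breakdown, read 8.21 and 8.53 in pregnancy and 10.05 and 9.87 postpartum (3.01-fold, adjusted p = 0.00406). Aox1, an aldehyde oxidase, and Ces2a, a carboxylesterase, rose 2.48-fold and 2.22-fold (adjusted p = 0.00263 and 0.00396). The values of these 5 genes did not overlap between the groups, and each was called with every array left out.

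Among the falls, Fkbp5, a co-chaperone whose gene is induced by glucocorticoids, read 11.06 and 11.20 in pregnancy and 9.92 and 10 postpartum (2.25-fold lower, adjusted p = 0.0028), and one of its probe sets differed by -0.02. Txnip, an inhibitor of thioredoxin that responds to glucose, read 9.95 and 10.15 in pregnancy and 9.02 and 8.56 postpartum (2.39-fold, adjusted p = 0.0102). Slc25a33, a mitochondrial carrier of pyrimidine nucleotides, fell 2.71-fold (adjusted p = 0.00263). All 3 were higher in both pregnancy livers and were called with every array left out. Lifr, the receptor of leukemia inhibitory factor, fell from 13.63 and 13.96 to 12.82 and 12.34 (2.32-fold, adjusted p = 0.0204), and its call was lost in 4 of the 6 fits with an array left out (adjusted p up to 0.103).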
